A study of Mus musculus with 2 samples.

Results

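Atf3-positive myonuclei were muscle fibre nuclei in which at least 1 RNA molecule of Atf3, a stress-induced transcription factor, was counted by single-nucleus RNA sequencing of mouse hindlimb muscle. A nucleus was kept as a myonucleus with 500 or more unique molecular identifiers (UMIs, each marking 1 captured RNA molecule), at most 10% mitochondrial UMIs and fewer than 3 UMIs summed over 8 genes of cells outside the fibre (Pdgfra, Dcn, Col1a1, Col3a1, Pecam1, Flt1, Ptprb and Ptprc). It was Atf3-positive with 1 or more Atf3 UMIs. Of 7857 barcodes in the series, 7318 passed as myonuclei and 318 of these were Atf3-positive, 57 of 3502 in the control library and 261 of 3816 in the knockout library. With 2 or more Atf3 UMIs, 18 and 109 nuclei remained. Because the nuclei were chosen by their Atf3 count, their Atf3 values are a description.

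The muscle was gastrocnemius-plantaris (GP), the calf muscle group, from male mice aged 5 months, labelled B6C3F1 in strain background, 3 months after tamoxifen. The founders of the floxed line were bred to C57BL/6N, so the background may be mixed. Ctrl mice carried floxed Net39 alleles (Net39 fl/fl) without Cre. cKO mice carried the same alleles with HSA-CreERT2, a Cre under the human skeletal actin promoter that tamoxifen switches on in muscle fibres, so that satellite cells and the heart keep the gene. Tamoxifen was given to both groups. Each library mixed nuclei of 3 muscles that were sorted by flow cytometry against debris, and there was 1 library per group. No difference could therefore be set against a spread between animals, no test was possible, and the 95% intervals below cover counting error only. They treat UMIs as independent although UMIs of 1 nucleus are not, so they are narrower than the spread over nuclei.

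Atf3 belongs to the ATF/CREB family of basic leucine zipper factors and is among the genes that cells switch on early after many kinds of stress, including injury, stretch and unfolded protein. It binds DNA as a dimer, often with Jun family proteins, at ATF/CRE and AP-1 sequences, and can repress or activate its targets. In muscle its RNA is low at rest and is known to increase after exercise and injury. Net39, encoded by Plpp7, spans the membrane of the nuclear envelope in muscle. The comparisons below ask which RNAs accompanied Atf3 in the same nuclei, in which fibre types these nuclei lay, and whether they differed in Plpp7 and Trp63, the latter encoding p63, a member of the p53 family.

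Every Atf3-positive nucleus was set beside 3 nuclei of the same library with 0 Atf3 UMIs and the closest total UMI count, here called matched nuclei, 171 in Ctrl and 783 in cKO. The Atf3-positive nuclei held between 666 and 15142 UMIs in Ctrl, with a median of 2917, and between 584 and 17815 in cKO, with a median of 2309. The matched medians were 2914 and 2307, while all nuclei with 0 Atf3 UMIs had medians of 2115 and 1624. Matching was needed because a deeper nucleus has a larger chance of showing an Atf3 UMI. At equal depth, Atf3-positive nuclei showed somewhat fewer genes, with a median of 1029 against 1113 in Ctrl and 875 against 928 in cKO.

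The transcript of Ttn, the giant spring protein of the sarcomere, was seen in 100% of Atf3-positive nuclei of both libraries. It was also seen in 94.3% of Ctrl and 89.1% of cKO nuclei left out for genes of other cells, so a Ttn UMI does little to tell the nuclei apart. Over 10 myonuclear markers the summed level was 81306 CPM in Ctrl and 67219 CPM in cKO Atf3-positive nuclei, and 47134 and 37701 CPM in the nuclei left out. Genes of other cells were counted as well, although the rule itself limits 8 of them, so these shares only describe what it left. Over 7 fibro-adipogenic progenitor markers, 14.0% of Ctrl and 3.45% of cKO Atf3-positive nuclei had a UMI, against 18.1% and 5.24% of matched nuclei, and 3 of the 7 markers were at 0 in either library. For 6 endothelial markers the shares were 1.75% and 6.51%, against 4.68% and 5.24%. For 7 immune markers they were 3.51% and 3.83%, against 3.51% and 2.17%. Satellite cell markers, which the rule did not use, were seen in 1.75% and 3.83%, against 2.92% and 4.85%. Adipocyte markers were seen in 24.6% and 10.3%, against 26.3% and 9.71%, and 4 of 5 in Ctrl and 3 of 5 in cKO were at 0. Smooth muscle and pericyte markers were seen in 5.26% and 1.53%, against 5.85% and 2.30%, and Schwann cell markers in 5.26% and 3.07%, against 7.60% and 4.73%. Among Atf3-positive nuclei near the marker threshold, 1 Ctrl and 6 cKO nuclei just inside it had 2 UMIs of the 8 genes, and 1 nucleus in each library just outside it had 3.

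Libraries differed in depth, with medians of 2106 UMIs per barcode in Ctrl and 1662.5 in cKO and totals of 10410316 and 8446070. The nuclear long non-coding RNA Malat1 took 27.9% of UMIs in Ctrl Atf3-positive nuclei against 26.5% in matched nuclei, and 36.2% against 31.2% in cKO. Leaving Malat1 and mitochondrial UMIs out of the totals multiplied the ratios of all Atf3-positive to matched nuclei by 1.08 in cKO, a shift of 0.11 on the log2 scale, and by 1.02 in Ctrl. For nuclei with 2 or more Atf3 UMIs the factors were 1.10 and 1.05, and for cKO over Ctrl they were 1.13 in Atf3-positive and 1.07 in matched nuclei. The part of Malat1 in the results was not tested. Mitochondrial UMIs were 0.328% against 0.421% in Ctrl and 0.467% against 0.401% in cKO. Between the libraries 5 barcodes were shared, and 1 Atf3-positive nucleus had such a barcode. The doublet caller Scrublet marked 0 nuclei and had not worked. Leaving out the 8% of nuclei with the highest doublet scores would remove 5.26% of Atf3-positive nuclei and 7.14% of myonuclei in Ctrl, but 12.6% and 7.94% in cKO.

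The targeted gene, Plpp7 (ENSMUSG00000051373, chr2:32095528-32110820, plus strand, GRCm38), was not a check of the deletion in these data. The loxP sites flank its first exon while UMIs come from the 3′ end of the transcript. In matched nuclei Plpp7 was at 40.6 UMIs per 1000000 UMIs (CPM) in Ctrl and 38.9 CPM in cKO, from 22 and 92 UMIs, a ratio of 0.96 (0.60 to 1.61). That ratio is a level of the 3′ end only.

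Atf3 (ENSMUSG00000026628, chr1:191170296-191218039, minus strand, GRCm38) was seen in 1.63% of Ctrl myonuclei (1.24 to 2.10, Clopper-Pearson) and in 6.84% of cKO myonuclei (6.06 to 7.69). The difference was 5.21 percentage points (4.30 to 6.15). Summed over all myonuclei, Atf3 was at 16.3 CPM (13.8 to 19.1) in Ctrl and 72.6 CPM (66.8 to 78.7) in cKO. The cKO library was the shallower of the pair. With every nucleus thinned to 500 UMIs, 17 Ctrl nuclei (0.485%) and 98 cKO nuclei (2.57%) were Atf3-positive. With 1000 UMIs, which drops shallower nuclei, the shares were 0.725% of 3311 and 4.36% of 3260. With 2 or more Atf3 UMIs they were 0.514% (0.305 to 0.811) and 2.86% (2.35 to 3.44). Thinned to 500 UMIs, 2 or more were left in 5 Ctrl nuclei (0.143%) and 9 cKO nuclei (0.236%), a difference of 0.09 percentage points (-0.14 to 0.33) that was not detectable at this depth.

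A share of nuclei with a UMI has to be read against stray RNA in droplets. The nuclei left out for their non-muscle genes served for comparison, though they also held muscle RNA and none of their cell types is known to lack Atf3. Among them 9 of 331 in Ctrl (2.72%, 1.25 to 5.10) and 3 of 92 in cKO (3.26%, 0.678 to 9.23) had an Atf3 UMI, at median depths of 1951 and 1851.5 UMIs. As levels, Atf3 was at 52.98 CPM and 121 CPM in them, above the myonuclei of the same library. Thinned to 500 UMIs, 1 of 331 (0.302%, 0.00765 to 1.67) and 2 of 92 (2.17%, 0.264 to 7.63) were positive, too few nuclei to set beside the thinned shares of myonuclei. The Ctrl share of 1.63% in myonuclei did not exceed that level and by itself is not read as expression. The cKO share lay above the point value but inside its wide interval. The part of stray RNA in either share was not tested.

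**Figure D1:**
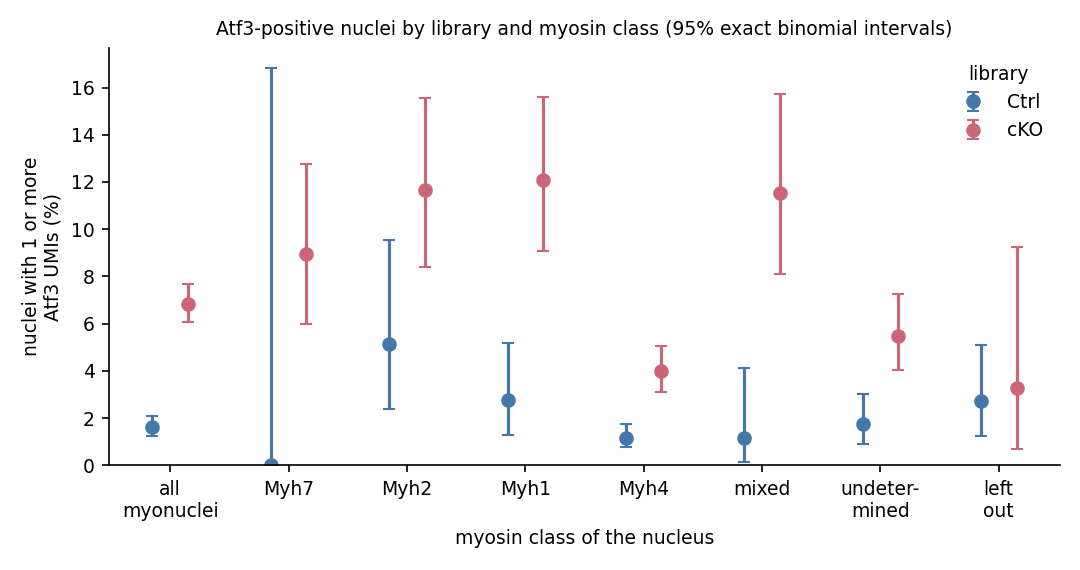
Share of nuclei with 1 or more Atf3 UMIs (%, vertical axis) in all myonuclei, in each myosin class and in the nuclei left out for non-muscle markers (horizontal axis), Ctrl in blue and cKO in red, with 95% Clopper-Pearson intervals. The cKO points of Myh7, Myh2, Myh1 and mixed nuclei lie between 8.97% and 12.1%, and that of Myh4 nuclei at 3.98%.

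Most Atf3-positive nuclei held a single Atf3 UMI. In Ctrl, 39 nuclei had 1 Atf3 UMI, 7 had 2, 2 had 3 and 9 had 4 or more, with 19 in the highest and 16 in the next. In cKO, 152 nuclei had 1, 49 had 2, 20 had 3 and 40 had 4 or more, with 26 in the highest and 14 in the next. A few nuclei carried much of the Ctrl signal. The 9 Ctrl nuclei with 4 or more UMIs held 60.7% of the 150 Atf3 UMIs, while the 40 such nuclei in cKO held 46.7% of 582. The 10 highest nuclei held 62.7% in Ctrl and 21.1% in cKO. Per nucleus, Atf3 ranged from 66.0 to 7849 CPM in Ctrl with a median of 522, and from 58.0 to 4319 CPM in cKO with a median of 668. These levels only describe nuclei chosen for an Atf3 UMI, and with 1 UMI the value is set by the depth of the nucleus.

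**Figure D2:**
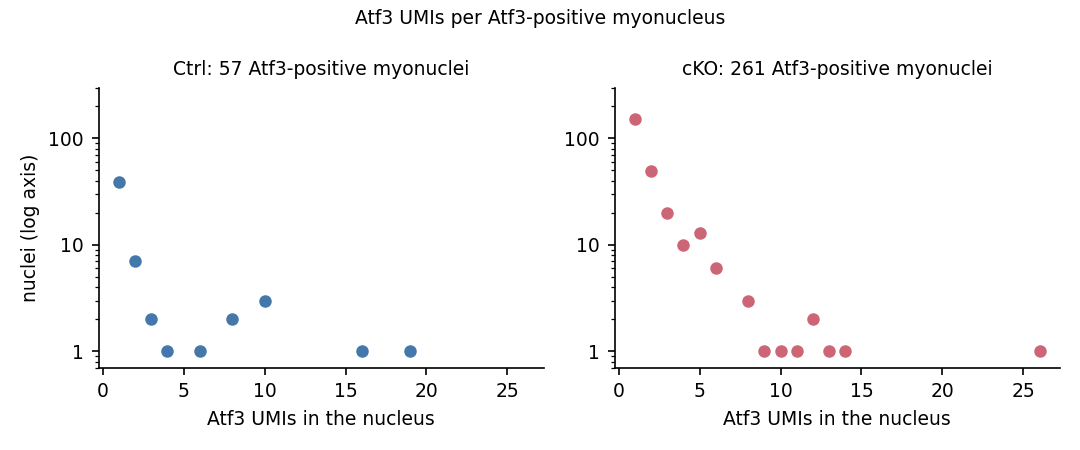
Number of Atf3-positive nuclei (vertical axis, log scale) with each count of Atf3 UMIs (horizontal axis), Ctrl in blue and cKO in red, each point a count of nuclei. In Ctrl 39 nuclei stand at 1 UMI and 5 at 10 or more, and in cKO 152 stand at 1 and 7 at 10 or more.

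Fibre type was read from the adult myosin heavy chains. Myh7 marks slow type I fibres, Myh2 type IIa, Myh1 type IIx and Myh4 the fast glycolytic type IIb. A nucleus was assigned to the gene that held at least 60% of its UMIs of these 4 genes when it had at least 3, was called mixed when no gene reached that share, and was undetermined with fewer. In cKO, Atf3-positive nuclei made up 12.1% of Myh1 nuclei (50 of 414, 9.10 to 15.6), 11.6% of Myh2 nuclei (39 of 335, 8.41 to 15.6), 8.97% of Myh7 nuclei (27 of 301, 5.99 to 12.8) and 11.5% of mixed nuclei (34 of 295). The share was 3.98% of Myh4 nuclei (65 of 1632, 3.09 to 5.05) and 5.48% of undetermined nuclei (46 of 839). The interval of Myh4 nuclei did not reach those of Myh7, Myh2 and Myh1 nuclei, which overlapped among themselves. Median depth was 1707 UMIs in Myh4 and between 1797 and 1967 in these other 3 classes. After thinning to 500 UMIs the order of Myh4 against the rest remained, with 1.35% (0.847 to 2.03) against 3.86% in Myh1, 4.48% in Myh2 and 4.32% in Myh7 nuclei.

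As summed levels, cKO Atf3 was at 122 CPM in Myh7, 119 in Myh2, 97.7 in Myh1 and 39.1 in Myh4 nuclei. Ctrl levels were 52.1 CPM in Myh2, 32.8 in Myh1 and 9.15 in Myh4 nuclei. Ctrl shares were 5.14% of Myh2 (9 of 175, 2.38 to 9.54), 2.77% of Myh1 (9 of 325, 1.27 to 5.19) and 1.18% of Myh4 nuclei (25 of 2124, 0.763 to 1.73). Ctrl Myh7 nuclei numbered 20 and none was Atf3-positive (0 to 16.8%, Clopper-Pearson), where 3 nuclei would make 15%. In each of Myh2, Myh1 and Myh4 nuclei the cKO share was the higher one, although for Myh2 nuclei the intervals overlapped.

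Among Atf3-positive nuclei with a main myosin, Myh4 led in both libraries. In cKO it was the leading gene in 35.9% of 181 nuclei (28.9 to 43.4), against 61.0% of 582 matched nuclei (56.9 to 65.0). Myh1 led in 27.6% against 14.8%, Myh2 in 21.5% against 10.8%, and Myh7 in 14.9% (10.1 to 20.96) against 13.4% (10.7 to 16.4). The smaller part of Myh4 was made up by Myh1 and Myh2 and not by Myh7. In Ctrl Myh4 stood at 58.1% of 43 nuclei (42.1 to 73.0) against 77.9% of 140, with Myh2 and Myh1 at 20.9% each against 7.86% and 14.3%. The myosin RNAs followed, with Myh4 at 1252 CPM against 1997 in cKO and 1577 against 2126 in Ctrl.

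At a 2-fold difference between Atf3-positive and matched nuclei, and among genes with 50 or more UMIs over both, 72 of 5240 genes (1.37%) were higher and 212 (4.05%) lower in cKO. In Ctrl 60 of 2008 (2.99%) were higher and 71 (3.54%) lower. These shares are the background for the gene lists below. Without Malat1 and mitochondrial UMIs in the totals the cKO counts were 98 and 146, which moves the split towards higher genes. The median log2 ratio over all these genes was -0.19 in cKO and -0.10 in Ctrl.

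Genes of mechanical stress and fibre repair had the largest summed ratio of the lists read, in both libraries. The list was chosen with earlier results of these data known and its place at the head of the results after its values were seen, so its rank and counts are a description. It holds 15 genes, mostly for proteins of the Z-disc, the actin and titin scaffold and the membrane repair machinery. Others on it are the Kelch genes Klhl40 and Klhl41 and the deubiquitinase gene Otud1. Summed over it, cKO Atf3-positive nuclei were at 5023 CPM and matched nuclei at 2033, a ratio of 2.47 (2.37 to 2.58). Ctrl Atf3-positive nuclei were at 7274 CPM and matched nuclei at 1660, a ratio of 4.38 (4.02 to 4.78). Of the 10 genes with enough UMIs in cKO, 9 were 2-fold or more higher, against 1.37% of all genes, and the tenth, the membrane repair gene Dysf, had a ratio of 0.89. In Ctrl it was 6 of 7, against 2.99%, and Dysf had 1.82. The median log2 ratio of the measured genes was 1.37 in cKO and 2.33 in Ctrl.

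Csrp3 (ENSMUSG00000030470, chr7:48830398-48848033, minus strand, GRCm38), which encodes the Z-disc muscle LIM protein, was at 264 CPM in cKO Atf3-positive nuclei against 30.9 in matched nuclei, 8.55-fold (6.53 to 11.3). It was seen in 29.5% of the former and 5.24% of the latter. Ctrl levels were 171 CPM against 31.4, 5.47-fold (2.94 to 10.5). The matched nuclei of the libraries thus had like Csrp3 levels, and the Atf3-positive nuclei of both stood above them.

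Ankrd1 (ENSMUSG00000024803, chr19:36111961-36120099, minus strand), a titin-associated ankyrin repeat protein induced by stretch, was at 145 CPM against 17.4 in cKO, 8.38-fold (5.83 to 12.3), and 6.14-fold without the nucleus that held 34 of its 120 UMIs. Its Ctrl level was 127 CPM against 9.22, from 23 and 5 UMIs, 13.8-fold (5.13 to 46.5). It was seen in 9.96% of cKO Atf3-positive nuclei, so most of them showed none. Its relative Ankrd2 was at 155 CPM against 55.0 in cKO (2.82-fold) and 531 against 97.7 in Ctrl (5.43-fold).

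Enah (ENSMUSG00000022995, chr1:181896384-182019990, minus strand) encodes a protein that lengthens actin filaments. It was at 584 CPM against 130 in cKO, 4.49-fold (3.89 to 5.20), and at 786 CPM against 73.8 in Ctrl, 10.6-fold (7.45 to 15.5). It was seen in 42.1% against 23.2% of nuclei in cKO and 56.1% against 19.3% in Ctrl. Among named Ctrl genes with 50 or more UMIs Enah had the largest ratio.

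The abundant scaffold genes were higher too. Xirp2, an actin-binding repeat protein of the fibre's injured sites, was at 2242 CPM against 873 in cKO (2.57-fold) and 3269 against 804 in Ctrl (4.07-fold). Flnc, the filamin of the Z-disc, was at 801 CPM against 353 in cKO (2.27-fold, 2.05 to 2.52) and 1228 against 243 in Ctrl (5.04-fold, 4.05 to 6.31). Klhl40 and Klhl41, Kelch proteins that stabilise thin filament proteins, were 2.50-fold and 2.28-fold in cKO and 4.61-fold and 5.999-fold in Ctrl. The deubiquitinase gene Otud1 was 2.61-fold in cKO. For Xirp2, Flnc, Klhl41 and Ankrd2 the interval of the Ctrl ratio lay above that of the cKO ratio, and for Klhl40 the intervals overlapped.

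**Figure D3:**
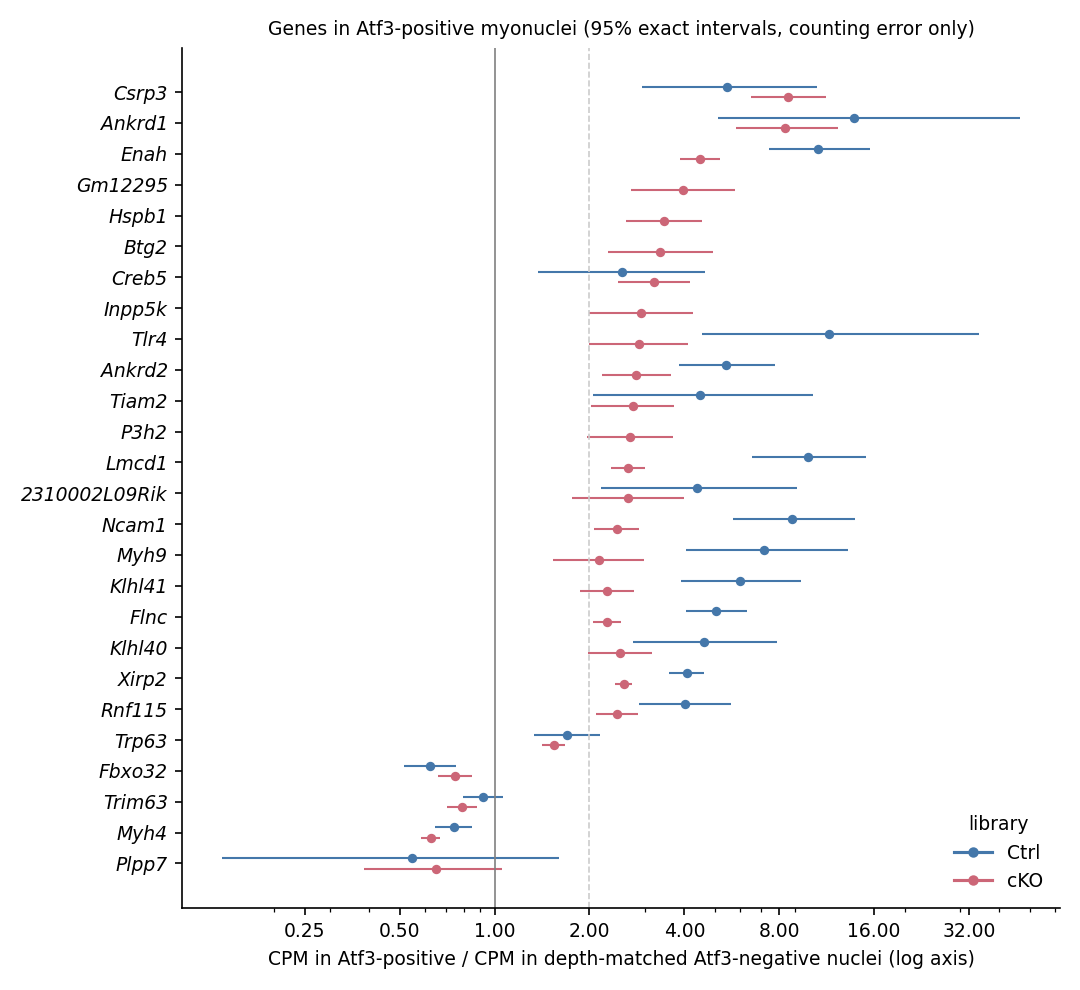
Ratio of CPM in Atf3-positive over depth-matched Atf3-negative nuclei (horizontal axis, log scale) for named genes (vertical axis), Ctrl in blue and cKO in red, with 95% exact conditional intervals and lines at 1 (solid) and 2 (dashed); a point is drawn where the gene had 20 or more UMIs. Csrp3, Ankrd1 and Enah lie above 4 in both libraries, Trp63 between 1.54 and 1.70, and Myh4 and Plpp7 below 1.

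The mechanical genes were also read nucleus by nucleus. Per nucleus, the summed list had a median of 2882 CPM in cKO Atf3-positive nuclei and 1546 in matched nuclei, and of 4857 and 1240 in Ctrl. At least 4 of its 15 genes were seen in 56.7% of cKO Atf3-positive nuclei (148 of 261) and 26.6% of matched nuclei, and in 68.4% (39 of 57) and 22.8% in Ctrl. After thinning to 500 UMIs these shares were 9.20% against 0.766% in cKO. In Ctrl they were 19.3% (11 of 57) against 0 of 171 (0 to 2.13%, Clopper-Pearson), where 3 nuclei would make 1.75%.

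**Figure D4:**
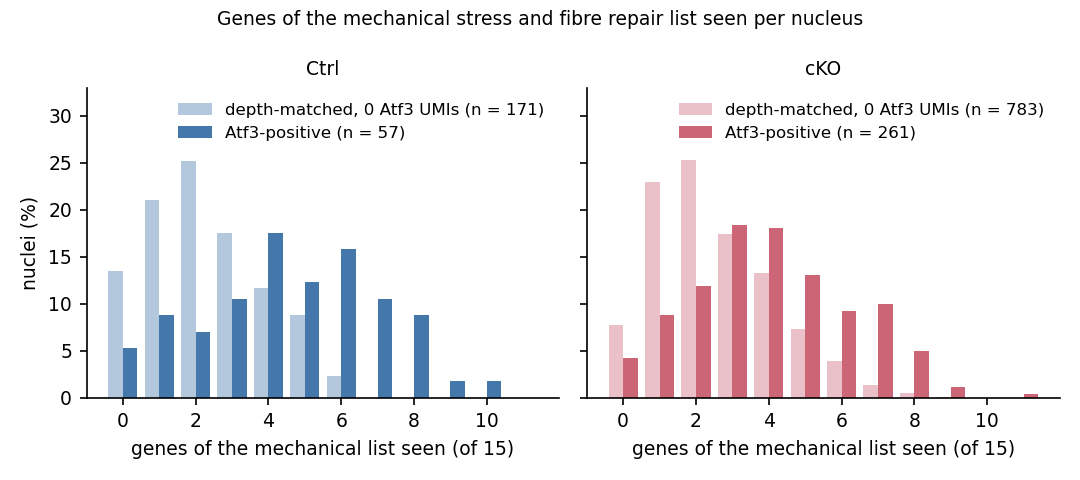
Share of nuclei (%, vertical axis) with each number of the 15 mechanical stress and fibre repair genes seen (horizontal axis), for Atf3-positive nuclei (dark bars) and depth-matched nuclei with 0 Atf3 UMIs (pale bars), Ctrl left and cKO right. The median is 5 genes against 2 in Ctrl and 4 against 2 in cKO.

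The list was higher within every myosin class that held at least 5 Atf3-positive nuclei, with matching on class and depth. In cKO the ratio was 4.06 (3.51 to 4.70) in Myh7, 2.46 in Myh2, 1.84 in Myh1, 1.80 in Myh4, 1.63 in mixed and 5.14 in undetermined nuclei. In Ctrl it was 2.48 in Myh2, 2.50 in Myh1, 3.14 in Myh4 and 13.5 in undetermined nuclei. Undetermined nuclei, which show little adult myosin RNA, thus had the largest ratio in both libraries. Enah alone ranged from 2.01-fold in mixed to 7.24-fold in undetermined nuclei of cKO.

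Read from the other side, Atf3 was found more often where these genes were seen. In cKO 35.5% of the 217 myonuclei with a Csrp3 UMI were Atf3-positive (29.1 to 42.2), against 5.11% of those without. With an Ankrd1 UMI it was 30.2% of 86 against 6.30%, and in Ctrl 24.4% of 41 (12.4 to 40.3) against 1.36%. With Enah it was 15.0% against 4.90% in cKO and 5.10% against 0.870% in Ctrl. Nuclei with such a UMI were deeper, with medians of 2424 against 1630 UMIs for Csrp3 in cKO, so these shares are a description and were not matched.

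Beyond that list, the genes with the largest cKO ratios held regulators and signalling proteins. Btg2, an antiproliferative gene of the early stress response, was at 75.1 CPM against 22.4 (3.35-fold, 2.28 to 4.93), and Creb5, another CRE-binding factor, at 151 against 47.4 (3.195-fold, 2.46 to 4.16). Lmcd1, a LIM-domain cofactor of transcription in striated muscle, was at 582 CPM against 220 in cKO (2.65-fold, 2.33 to 3.00) and at 581 against 59.0 in Ctrl (9.84-fold, 6.57 to 15.1). Its level in Atf3-positive nuclei was thus alike in both libraries, and that of matched nuclei was not.

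The innate receptor gene Tlr4 was 2.86-fold in cKO and 11.5-fold (4.55 to 34.5) in Ctrl, and Tiam2, an activator of the GTPase Rac, 2.74-fold and 4.50-fold. P3h2, a collagen prolyl hydroxylase, was 2.70-fold in cKO with 3 UMIs in all in Ctrl. The non-coding Gm12295 was 3.95-fold, or 2.83-fold without 1 nucleus, and the uncharacterised 2310002L09Rik was 2.65-fold and in Ctrl 4.40-fold. Inpp5k, a phosphoinositide phosphatase, was 2.91-fold only with 1 nucleus that held 20 of its 58 UMIs, and 1.91-fold without it. Of the 15 leading cKO genes, 14 had a ratio above 1 in Ctrl too, 1 of them (Gm12295) from 2 UMIs against 0. For some of these, such as Btg2 with 4 Ctrl UMIs against 2, the interval included 1. The median log2 ratio over all tested Ctrl genes was -0.10. No share of all genes above 1 was set beside the count of 14, so it is a description.

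Of the 10 leading Ctrl genes, 3 (Enah, Lmcd1 and Ankrd2) were among the leading 15 of cKO and all 10 were above 1 there. The median log2 ratio over all tested cKO genes was -0.19. Rnf115, a ubiquitin ligase gene, was 4.01-fold in Ctrl and 2.44-fold in cKO. In 2 others a single nucleus held many of the UMIs. Ncam1, a cell adhesion gene that denervated fibres re-express, was 8.79-fold in Ctrl and 4.33-fold without the nucleus that held 44 of its 85 UMIs, and in cKO 2.44-fold and 1.86-fold without a nucleus with 69. Myh9, the non-muscle myosin, was 7.17-fold in Ctrl and 2.14-fold in cKO, or 5.10-fold and 1.46-fold without 1 nucleus.

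Because Atf3 binds ATF/CRE and AP-1 sequences, the promoters of the named genes were read for 3 motifs on both strands: the ATF/CRE site TGACGTCA, its core TGACGT, which lies inside that site, and the AP-1 site TGANTCA. Windows ran from 250 bases before to 50 after the RefSeq start (GRCm38.p6), and 27 of 32 genes had one. Among the leading cKO genes with a window, 3 of 13 held the ATF/CRE site, namely Btg2, Creb5 and Lmcd1, against 1.79% of all 32851 windows and 2.03% of 27025 genes. None of the 8 lower genes held it. The core was in 4 of 13 and 2 of 8, against 8.37% of genes, and the AP-1 site in 2 of 13 and 0 of 8, against 8.97%. Among the leading Ctrl genes 1 of 9 held the ATF/CRE site, Lmcd1 again, 2 of 9 the core and 2 of 9 the AP-1 site. A match shows letters in a window and not a bound site. The 250 bases upstream of the start are shown for Atf3 itself and for the 3 genes with the full site, 5′ to 3′ on the gene's strand, with the site or, in Atf3, the reverse complement of the core in capitals.
Atf3, chr1:191183334-191183583, minus strand: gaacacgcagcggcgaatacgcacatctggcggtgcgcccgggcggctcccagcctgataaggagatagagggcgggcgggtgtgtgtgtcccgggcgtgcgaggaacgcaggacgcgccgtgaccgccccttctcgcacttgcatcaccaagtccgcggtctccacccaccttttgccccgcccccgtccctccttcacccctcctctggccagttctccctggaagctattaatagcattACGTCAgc
Btg2, chr1:134079156-134079405, minus strand: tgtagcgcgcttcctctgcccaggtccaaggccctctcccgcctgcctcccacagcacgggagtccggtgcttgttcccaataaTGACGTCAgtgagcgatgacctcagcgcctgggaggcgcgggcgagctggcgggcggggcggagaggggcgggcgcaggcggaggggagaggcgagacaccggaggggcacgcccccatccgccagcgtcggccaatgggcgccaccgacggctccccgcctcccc
Creb5, chr6:53287053-53287302, plus strand: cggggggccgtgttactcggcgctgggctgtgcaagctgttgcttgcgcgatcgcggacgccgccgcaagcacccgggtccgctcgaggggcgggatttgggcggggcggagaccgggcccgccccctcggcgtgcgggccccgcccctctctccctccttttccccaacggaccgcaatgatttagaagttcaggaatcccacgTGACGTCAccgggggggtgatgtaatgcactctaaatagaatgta
Lmcd1, chr6:112273508-112273757, plus strand: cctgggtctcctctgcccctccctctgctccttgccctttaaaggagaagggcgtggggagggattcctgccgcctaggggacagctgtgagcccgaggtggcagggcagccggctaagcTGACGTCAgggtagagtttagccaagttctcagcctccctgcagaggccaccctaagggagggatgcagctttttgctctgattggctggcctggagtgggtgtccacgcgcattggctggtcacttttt
The site began 166 bases upstream of the start in Btg2, 45 in Creb5 and 130 in Lmcd1, and the core began 8 bases upstream in Atf3.

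Immediate early genes, the transcription factors and regulators that cells express within minutes of a stimulus, were higher in sum. They were at 699 CPM against 419 in cKO (1.67, 1.50 to 1.85) and at 514 against 277 in Ctrl (1.86, 1.42 to 2.42). Matched on class, the cKO ratio was 1.97 in Myh4, 1.92 in Myh7, 1.68 in undetermined and 1.58 in Myh1 nuclei. It was 1.13 (0.82 to 1.54) in Myh2 and 1.18 (0.86 to 1.61) in mixed nuclei. In Ctrl it was 3.21 in Myh2 and 2.17 in Myh4 nuclei, but 1.20 (0.46 to 2.84) in Myh1 and 0.93 (0.39 to 2.02) in undetermined nuclei. Of 8 measured in cKO, 4 were 2-fold or more higher, against 1.37% of all genes, and all 8 were above 1. These 4 were Btg2 and the nuclear receptor Nr4a2 (3.32-fold, 2.10 to 5.26), the AP-1 subunit Fos (66.7 CPM against 29.6, 2.25-fold) and the matricellular gene Cyr61 (2.03-fold, 1.75-fold without 1 nucleus). Jun, which encodes a dimer partner of Atf3, was at 125 CPM against 77.5 (1.61-fold, 1.25 to 2.06), and Nr4a3 1.80-fold. Nr4a1 stood at 1.04 (0.76 to 1.42). In Ctrl only 1 list gene had enough UMIs, and it was below 2-fold. Nr4a3 there had 25 UMIs against 4, 18.7-fold (6.47 to 74.1).

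Heat shock genes, the chaperones that bind unfolded protein, were at 1486 CPM against 852 in cKO (1.74, 1.62 to 1.87) and 857 against 393 in Ctrl (2.18, 1.76 to 2.70). In cKO 2 of 10 measured genes were 2-fold or more higher and 9 were above 1. The small heat shock protein genes Hspb1 and Hspb6 were these 2, with Hspb1 at 144 CPM against 41.9 (3.44-fold, 2.61 to 4.54) and Hspb6 2.08-fold (1.89-fold without 1 nucleus). Their relative Cryab, which guards desmin filaments, was at 399 CPM against 211 (1.89-fold), and Bag3, a co-chaperone that clears damaged Z-disc proteins, at 322 against 168 (1.92-fold). The general chaperone genes Hsp90aa1 and Hsp90ab1 were at 1.17 (0.80 to 1.69) and 0.84 (0.61 to 1.14). In Ctrl Bag3 was 2.19-fold (1.32 to 3.60) and Cryab 4.42-fold, from 28 UMIs against 19.

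Genes of the integrated stress response, the programme led by Atf4 that often includes Atf3, gave no such difference. In sum they were at 476 CPM against 443 in cKO (1.08, 0.955 to 1.21) and 437 against 559 in Ctrl (0.78, 0.60 to 1.00). None of the 7 measured cKO genes reached 2-fold in either direction. Ddit3, the CHOP factor of the unfolded protein response, was 1.61-fold (1.09 to 2.33) and the cystine transporter gene Slc7a11 1.70-fold (1.29 to 2.23), while the lipoprotein receptor gene Vldlr had 0.77 (0.63 to 0.93). In Ctrl Ddit3 had 3 UMIs against 22.

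Trp63 (ENSMUSG00000022510, chr16:25683763-25892102, plus strand) was at 1037 CPM in cKO Atf3-positive nuclei against 673 in matched nuclei, 1.54-fold (1.42 to 1.68). It was seen in 66.7% against 55.7% of nuclei. The Ctrl level was 603 CPM against 354, 1.70-fold (1.33 to 2.17), although it was seen in 49.1% against 52.6%. With 2 or more Atf3 UMIs the Ctrl ratio was 1.31 (0.81 to 2.07), from 28 UMIs against 64, an interval that included 1, and the cKO ratio was 1.85 (1.66 to 2.07). Across cKO classes the ratio was not even. It was 1.70 (1.45 to 1.98) in Myh4, 1.65 (1.33 to 2.03) in mixed and 1.29 (1.10 to 1.50) in Myh1 nuclei. In Myh2 nuclei it was 1.11 (0.85 to 1.45), in undetermined nuclei 1.23 (0.94 to 1.60) and in Myh7 nuclei 0.86 (0.57 to 1.28), and these 3 intervals included 1. In Ctrl it was 2.05 (1.51 to 2.76) in Myh4 and 2.13 (1.07 to 4.13) in undetermined nuclei, but 0.97 (0.46 to 1.91) in Myh1 and 0.46 (0.09 to 1.55) in Myh2 nuclei. Among cKO myonuclei with a Trp63 UMI 9.86% were Atf3-positive, against 4.24% without, while in Ctrl these shares were 1.66% and 1.59%.

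The p53 family and its direct targets together were at 1807 CPM against 1262 in cKO (1.43, 1.34 to 1.52), most of it Trp63, and 1239 against 787 in Ctrl (1.57, 1.33 to 1.85). None of the 9 measured cKO genes reached 2-fold and 6 were above 1. Mdm2, the ligase that degrades p53, was 1.66-fold (1.29 to 2.13), the receptor gene Eda2r 1.64-fold and the stress sensor Sesn1 1.38-fold, while Trp53inp1 had 0.59 (0.37 to 0.90). In Ctrl Sesn1 was 2.17-fold, or 1.72-fold without 1 nucleus. Genes that sense and repair DNA damage were not higher, at 0.87 (0.76 to 1.00) in cKO and 0.80 (0.59 to 1.07) in Ctrl, with 0 of 6 measured cKO genes at 2-fold. With 2 or more Atf3 UMIs the Ctrl ratio was 0.30 (0.12 to 0.65), from 7 UMIs against 70, and the cKO ratio 0.82 (0.67 to 1.00).

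Plpp7 was low in all nuclei. In cKO it was at 25.5 CPM in Atf3-positive nuclei against 38.9 in matched nuclei, from 21 and 92 UMIs, a ratio of 0.65 (0.39 to 1.06). The Ctrl level was 22.1 CPM against 40.6, from 4 and 22 UMIs, a ratio of 0.55 (0.14 to 1.61). Both ratios were below 1 and both intervals included 1, so no difference in Plpp7 could be detected with these counts. The nuclear envelope list, which includes Plpp7, had a summed ratio of 0.84 (0.77 to 0.91) in cKO. On the log2 scale it was at -0.25, beside a median of -0.19 over all genes, and 0 of 10 measured genes were at or below 0.5. Matched on class, it was 0.81 (0.70 to 0.94) in Myh4 and 0.72 (0.54 to 0.94) in undetermined nuclei. The intervals included 1 in Myh7 (1.01), Myh1 (0.97), Myh2 (0.85) and mixed nuclei (0.86). In Ctrl the summed ratio was 0.99 (0.84 to 1.18), which passes 1 with Malat1 and mitochondrial UMIs left out of the totals.

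Atrophy genes were mixed. Fbxo32 and Trim63, the muscle ubiquitin ligases that mark proteins for breakdown, were at 379 CPM against 505 (0.75, 0.66 to 0.85) and 493 against 626 (0.79, 0.70 to 0.88) in cKO. Matched on class, cKO Trim63 was 0.16 (0.09 to 0.29) in undetermined nuclei. In the other classes it lay between 0.79 in Myh2 and 1.04 in Myh7 nuclei, with intervals that included 1. Fbxo32 was 0.45 in undetermined, 0.62 in Myh2, 0.69 in Myh1 and 0.58 (0.30 to 1.03) in Myh7 nuclei, but 1.02 in Myh4 and 0.98 in mixed nuclei. In Ctrl Fbxo32 was at 752 CPM against 1204 (0.62, 0.52 to 0.75) and Trim63 at 1306 against 1418 (0.92, 0.79 to 1.07). Zfand5, which feeds substrates to the proteasome, was 0.63 in cKO. The summed list had a ratio of 0.86 (0.81 to 0.91) in cKO and 0.87 (0.80 to 0.96) in Ctrl. On the log2 scale the cKO sum was at -0.22, beside a median of -0.19 over all genes. Among 9 measured cKO genes 5 were above 1, none was at or below 0.5, and the median log2 ratio was 0.17. In Ctrl none of 5 reached 2-fold in either direction and the median was -0.03. Fbxo30, another ligase of atrophying muscle, was 2.23-fold (1.31 to 3.75) in cKO, or 1.95-fold without 1 nucleus.

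Fast fibre genes in cKO had a summed ratio of 0.83 (0.81 to 0.86), with the Z-disc gene Actn3 at 0.55, the calcium pump gene Atp2a1 at 0.65 and the myosin-binding gene Mybpc2 at 0.64. None of the 12 reached 2-fold. This sum stood beside the class mix given above, with Myh4 at 35.9% of the classed Atf3-positive and 61.0% of the classed matched nuclei, and the part of that mix was not tested. Matched on class, it was 0.79 (0.76 to 0.83) in Myh4, 0.91 in mixed and 0.77 in undetermined nuclei, but 1.04 (0.98 to 1.09) in Myh1, 1.05 (0.95 to 1.16) in Myh2 and 1.16 (0.96 to 1.38) in Myh7 nuclei. In Ctrl the sum was 0.91 (0.86 to 0.96), and the myosin light chain genes Myl1 and Mylpf were the 2 of 12 above 2-fold, staying above it without the nucleus with most of their UMIs. Slow fibre genes were at 1.29 (1.22 to 1.35) in cKO, where Myoz2, a Z-disc gene, was the 1 of 11 at 2-fold (2.03, 1.97 without 1 nucleus) and Myh7 itself stood at 1.23 (1.10 to 1.39). Within class the slow sum ranged from 1.09 (0.94 to 1.26) in mixed to 1.68 (1.47 to 1.92) in Myh4 nuclei. The slow sum in Ctrl rested on few UMIs, with no gene measured.

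Markers of specialised fibre regions were compared too. Neuromuscular junction markers were at 202 CPM against 264 in cKO and 354 against 312 in Ctrl. Myotendinous junction markers were at 351 against 205 and 393 against 199, but that list contains Ankrd1. Its most specific member, Col22a1, had a ratio of 0.53 (0.26 to 0.99) in cKO. Denervation and regeneration genes were at 1.19 (1.09 to 1.29) in cKO, where of 5 measured genes Ncam1 was the 1 higher and Dach2 (6 UMIs against 47) the 1 lower at 2-fold, and at 1.47 (1.23 to 1.74) in Ctrl. The embryonic myosin gene Myh3, expressed in regenerating fibres, had 35 UMIs in cKO Atf3-positive nuclei against 3 in matched nuclei, seen in 2.68% of the former. Its ratio of 33.4 (10.5 to 170) was 20.5 without the nucleus with most, and it was chosen after its values were seen.

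The lower genes in cKO were led by Zfp949, but 1 matched nucleus held 1044 of its 1149 matched UMIs, and without it the ratio was 0.98. Klf13, a zinc finger factor, was at 15.8 CPM against 60.5 (0.26, 0.14 to 0.46) and in Ctrl at 27.7 against 79.3 (0.35, 0.11 to 0.88). Pla2g7, an enzyme that degrades platelet-activating factor, was at 0.28 (0.15 to 0.48) and 0.49 in Ctrl, and Igfbp5, a binding protein for insulin-like growth factors, at 0.35 (0.20 to 0.56) and 0.41. The lipid transfer gene Pitpnb was at 0.30 in cKO but 1.12 in Ctrl. The remaining leading genes were Ankrd44 (0.34), Xylt1 (0.37), Col19a1 (0.37, 0.46 without 1 nucleus) and Lsamp, which had 0.36 and 0.73 without 1 nucleus. Gm13938 had 0.33 and is annotated as antisense, so its reads and those of a gene on the other strand cannot be told apart if counting ignored strand. In Ctrl 8 of these 10 were below 1, where the median log2 ratio over all tested genes was -0.10. The typical Ctrl gene was thus below 1 as well, so this count is a description.

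The number of Atf3 UMIs ordered the nuclei further. In cKO the mechanical list was at 2033 CPM in matched nuclei, 3460 in the 152 nuclei with 1 Atf3 UMI, 4791 in the 69 with 2 to 3 and 8926 in the 40 with 4 or more. In Ctrl it was at 1660, 3685, 12842 and 19047 CPM over 171, 39, 9 and 9 nuclei. The last 2 Ctrl values rest on few nuclei. Per nucleus, Ctrl nuclei with 2 or more Atf3 UMIs had a median of 13086 CPM and a highest value of 71556. Matched nuclei were those of all Atf3-positive nuclei and were not matched to the depth of each group. Nuclei with a single Atf3 UMI thus already stood above matched nuclei in both libraries. Enah followed the same order, with 130, 288, 545 and 1317 CPM in cKO and 73.8, 314, 705 and 2862 in Ctrl.

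Other lists differed in how they followed Atf3. Heat shock genes stood at 852, 1224, 1433 and 2159 CPM in cKO, immediate early genes at 419, 545, 751 and 987, and Trp63 at 673, 836, 1064 and 1467. Integrated stress response genes stayed between 420 and 509 CPM in cKO with no order. Atrophy genes went from 1813 and 1926 CPM in nuclei with 0 and 1 Atf3 UMIs to 1403 and 909 in cKO, and in Ctrl from 3633 and 3563 to 2165 and 2171. Trp63 in Ctrl, at 354, 621, 453 and 625 CPM, did not follow the Atf3 count beyond 1 UMI. Median depth in the nuclei with 4 or more Atf3 UMIs was 3588 UMIs in cKO and 2678 in Ctrl.

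**Figure D5:**
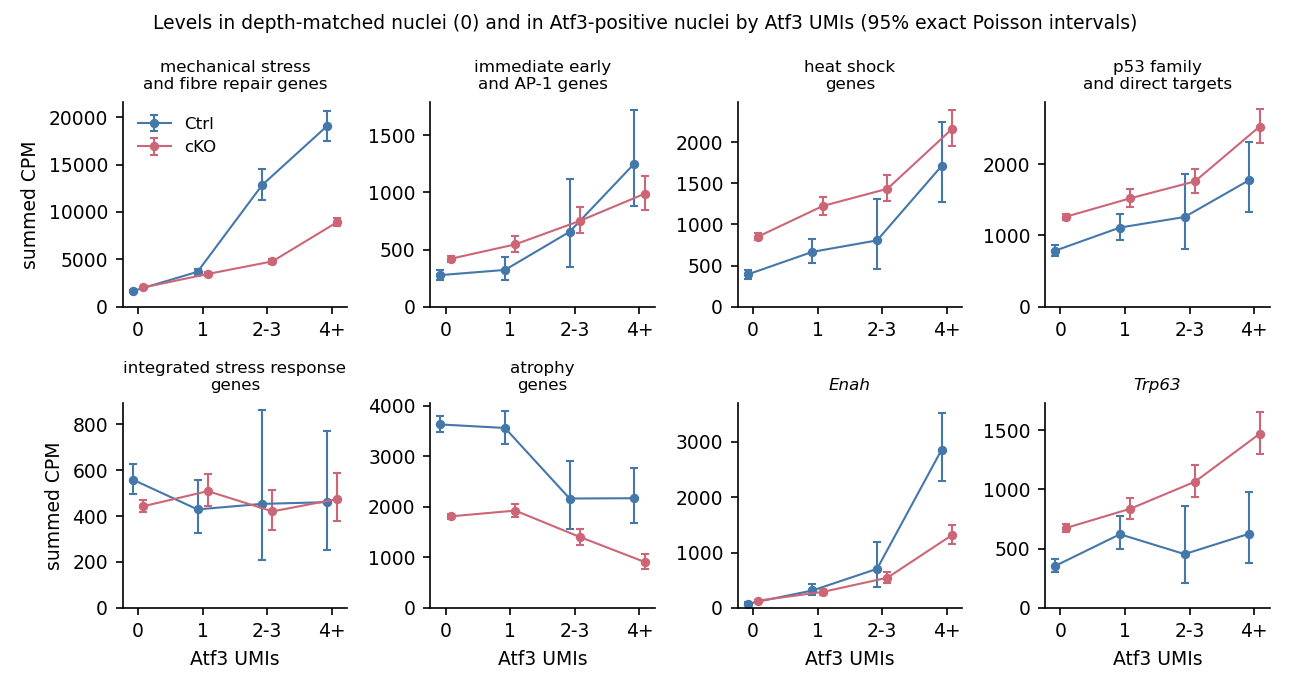
Summed CPM of 6 gene lists and of Enah and Trp63 (vertical axes) in matched nuclei with 0 Atf3 UMIs and in Atf3-positive nuclei with 1, 2 to 3 and 4 or more (horizontal axis), Ctrl in blue and cKO in red, with 95% exact Poisson intervals. The mechanical list goes from 2033 to 8926 CPM in cKO and from 1660 to 19047 in Ctrl, while integrated stress response genes lie between 420 and 509 CPM in cKO and between 429 and 559 in Ctrl. Atrophy genes are at 1813 CPM in matched cKO nuclei, 1926 at 1 Atf3 UMI and 909 at 4 or more, and at 3633, 3563 and 2171 in Ctrl.

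The nuclei with 4 or more Atf3 UMIs were described one by one. All 9 in Ctrl had UMIs of Enah, Xirp2 and Flnc, with medians of 7, 17 and 12 UMIs per nucleus, and 8 had Lmcd1. None had a Plpp7 UMI. By main myosin 3 were Myh4, 2 Myh2, 1 Myh1 and 3 undetermined. Of the 40 in cKO, 38 had Xirp2, 37 Flnc, 32 Lmcd1, 30 Trp63, 26 Enah, 22 Csrp3 and 14 Ankrd1, and 2 had Plpp7. Their classes were spread, with 8 Myh7, 5 Myh2, 6 Myh1, 8 Myh4, 6 mixed and 7 undetermined nuclei. The cKO nucleus with 26 Atf3 UMIs held 42 of Enah, 126 of Xirp2 and 69 of Ncam1 among 7187 UMIs.

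Restricting to nuclei with 2 or more Atf3 UMIs left the mechanical list at 3.23 times the level of its matched nuclei in cKO (3.06 to 3.42) and 8.70 times in Ctrl (7.60 to 9.99). All 6 measured list genes in Ctrl were 2-fold or more higher, where 55 of 518 genes (10.6%) were higher and 52 (10%) lower. In cKO it was 9 of 10, where 76 of 3520 (2.16%) were higher and 196 (5.57%) lower. Without Malat1 and mitochondrial UMIs in the totals the counts were 61 higher and 38 lower in Ctrl and 94 and 127 in cKO, so these splits depended on the scaling. Immediate early genes were at 1.97 (1.71 to 2.26) in cKO and 4.77 (3.01 to 7.67) in Ctrl, and p53 family genes at 1.61 and 1.85. The summed atrophy list was at 0.66 (0.59 to 0.72) in cKO and 0.60 (0.49 to 0.74) in Ctrl, further below 1 than with 1 or more UMIs (0.86 and 0.87). The 18 Ctrl nuclei had 0 Plpp7 UMIs, which with 3 UMIs as the floor allows up to 59.7 CPM.

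Atf3-positive nuclei of the libraries were last compared directly, with the same ratio between matched nuclei, which had no Atf3 UMI, beside the values. Of 2411 genes, 141 (5.85%) were 2-fold or more higher in cKO Atf3-positive nuclei and 133 (5.52%) lower, and between matched nuclei 271 of 5095 (5.32%) and 167 (3.28%). The split depended on the scaling, since without Malat1 and mitochondrial UMIs in the totals 203 genes were higher and 74 lower in Atf3-positive nuclei, and 322 and 116 in matched nuclei. Slow fibre genes were at 2787 CPM in cKO and 266 in Ctrl, 10.5-fold (7.89 to 14.3), with 8 of 8 measured genes at 2-fold, and at 13.1-fold between matched nuclei. Nckap5 was at 905 CPM against 27.7, from 747 and 5 UMIs, 32.7-fold (14.0 to 101), and 31.98-fold between matched nuclei. Both differences were thus also present between nuclei with no Atf3 UMI. Myh7 had 421 UMIs against 2 and a ratio of 46.1 (12.7 to 382), beside 976 against 2 and 112 (30.9 to 926) in matched nuclei. The slow calcium pump gene Atp2a2 was 14.0-fold beside 14.9-fold. Zc2hc1a and Jam3 had 1 Ctrl UMI each, at 41.4-fold (7.34 to 1644) beside 9.39-fold and 24.3-fold (4.28 to 969) beside 6.58-fold.

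The mechanical list was lower in cKO than in Ctrl Atf3-positive nuclei, at 0.69 (0.65 to 0.74), but at 1.23 (1.14 to 1.32) between matched nuclei. Flnc was at 0.65 (0.56 to 0.76) beside 1.45, Enah at 0.74 (0.62 to 0.90) beside 1.76 and Ankrd2 at 0.29 (0.22 to 0.39) beside 0.56. Csrp3 was at 1.54 (1.05 to 2.32) beside 0.99. Vcl, the actin linker vinculin, was at 0.32 (0.22 to 0.48) beside 0.67, and Lama2, the laminin of the fibre's basement membrane, at 0.30 (0.23 to 0.39) beside 0.67. With 9 of the 57 Ctrl nuclei holding 579 of the list's 1315 Ctrl UMIs, the Ctrl level rests on few nuclei.

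Heat shock, immediate early and p53 family genes were higher in cKO in both kinds of nuclei. Heat shock genes were at 1.73 (1.47 to 2.06) in Atf3-positive and 2.17 (1.88 to 2.51) in matched nuclei, immediate early genes at 1.36 (1.09 to 1.71) and 1.52 (1.27 to 1.81), p53 family genes at 1.46 (1.27 to 1.69) and 1.60 (1.45 to 1.78), and Trp63 at 1.72 (1.41 to 2.12) and 1.90 (1.64 to 2.22). Integrated stress response genes were not, at 1.09 (0.85 to 1.41) in Atf3-positive and 0.79 (0.70 to 0.90) in matched nuclei, and DNA damage genes were at 1.01 (0.76 to 1.36) and 0.93 (0.80 to 1.08). Atrophy genes were at 0.49 (0.44 to 0.54) and 0.50 (0.47 to 0.53). The 10 genes with the lowest ratios included Tbc1d1, a regulator of glucose uptake, at 0.16 beside 0.22, the amino acid transporter gene Slc38a4 at 0.21 beside 0.39, and Pdk4, which shuts off pyruvate oxidation, at 0.25 beside 0.24. Plpp7 was at 1.15 (0.39 to 4.61) beside 0.96 (0.60 to 1.61). With 1 library per group these differences and any difference between the libraries themselves cannot be told apart.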

How the data were processed

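Nuclei of gastrocnemius-plantaris muscle were sequenced in 1 Ctrl and 1 cKO library, each from 3 pooled muscles. The titles name mouse 1 in each group. The labels and the study's methods name different releases of the 3′ droplet kit. The authors made UMI counts per gene and barcode with Cell Ranger 3.1.0 on mm10/GRCm38 and deposited raw counts for 27998 genes. The study's methods name default parameters for this step. The annotation release and the use of intronic reads are not stated outright in the sources used here, and since nuclei hold much unspliced RNA the choice could change levels.

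From these counts, nuclei were chosen as stated and each Atf3-positive nucleus was paired with 3 nuclei of the same library by total UMIs. The members and gene lists were chosen with earlier results of these data known. UMIs were summed and given as CPM. Intervals (95%) were exact Poisson for levels, exact conditional for ratios and Clopper-Pearson for shares. A list gene was measured with 50 or more UMIs over both sets. Named cKO genes had 100 or more UMIs and were seen in at least 5% of nuclei, and were the 15 highest and 10 lowest ratios. In Ctrl they were the 10 highest ratios at 50 or more UMIs, and between the libraries' Atf3-positive nuclei some of the 10 highest and 10 lowest. Atf3, Plpp7, Trp63, the adult myosins and list genes with 20 or more UMIs were added. Gene coordinates came from GENCODE for GRCm38. Computations used scanpy 1.11.5 (Scrublet), scipy 1.17.1, numpy 2.4.6, pandas 2.3.3 and Python 3.11.15, with figures from matplotlib 3.10.9. The ratios and their intervals were tested on simulated independent Poisson counts, which leave out the dependence of UMIs within 1 nucleus. The matching was checked on the data themselves, for nuclei taken only once and 3 per Atf3-positive nucleus. 1 of the leading cKO genes is not reported here.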

Additional observations from a re-analysis of the deposited data

How the results depend on the processing

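In 178 recomputations of 19 results, 142 stayed within the counting interval (for counts of genes, within 1.5 times) and 36 moved outside it. With 2 or more Atf3 UMIs the share of Atf3-positive nuclei in cKO minus Ctrl was 2.34 percentage points, and with nuclei thinned to 500 and 1000 UMIs it was 2.08 and 3.63. The other values are log2 ratios of Atf3-positive over matched nuclei. With 2 or more Atf3 UMIs, Trp63 was 0.39 in Ctrl and 0.89 in cKO, immediate early genes 2.25 and 0.98, the mechanical list 3.12 and 1.69, p53 family genes 0.68 in cKO and integrated stress response genes -0.10 in cKO, where 1 or more UMIs gave 0.11. With matching on depth and myosin class, Trp63 was 0.49 in cKO and the mechanical list 1.88 in Ctrl and 1.23 in cKO. Against all nuclei with 0 Atf3 UMIs, Trp63 was 0.82, p53 family genes 0.68 and the mechanical list 1.43 in cKO. Without Malat1 and mitochondrial genes in the totals, p53 family genes were 0.63 and the mechanical list 1.42 in cKO. In cKO the mechanical list was also 1.37 in nuclei with 0 non-muscle UMIs, 1.43 without the highest doublet scores and 1.44 as a mean of single nuclei. In Ctrl it was 2.51 as a mean of single nuclei and 2.01 without the nucleus with most of its UMIs. The cause of these moves was not tested. The number of genes at 2-fold also moved, with other numbers of genes tested than the 2008 in Ctrl and 5240 in cKO. Against all nuclei with 0 Atf3 UMIs, which lets more genes reach 50 UMIs, 457 of 8384 were higher and 1757 lower in Ctrl and 132 of 7848 and 711 in cKO. With 20 or more UMIs per gene the counts were 145 and 392 of 3962 in Ctrl and 169 and 640 of 7745 in cKO, and with 200 or more 14 and 1 of 449 and 21 and 13 of 2089. The mechanical list was added to the recomputed results, with all its alternatives, after seeing the data, as was the omission of single nuclei. Plpp7 kept a ratio below 1 in each recomputation, from -1.27 to -0.54 in Ctrl and -0.75 to -0.40 in cKO, and had no Ctrl value with 2 or more Atf3 UMIs, where its count was 0. No paired analysis was possible because each group had 1 library and no test was run. With 57 Atf3-positive nuclei, Ctrl values rest on few UMIs.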
